A study of Mus musculus with 2 samples.

Results

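Blood vascular endothelial cells form the inner wall of arteries, capillaries and veins. They were taken here from single-cell RNA counts of mouse bowel and mesenteric fat as 75 of 9246 kept barcodes in the Colotomy library and 373 of 42143 in the Sham library, 448 of 51389 in all. A barcode, which stands for 1 droplet, was kept with at least 500 gene UMIs (unique molecular identifiers, the counted transcripts), at least 300 genes and under 20% mitochondrial UMIs. It was a member when Pecam1, Cdh5, Kdr, Flt1, Egfl7 and Plvap summed to at least 3 UMIs, when the lymphatic genes Mmrn1, Prox1, Reln and Ccl21a were at 0, and when Ptprc (leukocytes), Col1a2 (fibroblasts) and Epcam (epithelium) were at 0. The values of these genes chose the members and are given only as a description.

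The Colotomy library came from B6/C57 mice of 8 to 12 weeks on day 14 after a colotomy, in which the colon wall is cut. The Sham library came from mice of the same strain, age range and day after a sham operation. In each library the bowel and its mesenteric adipose tissue (MAT) were digested apart, marked with hashtag antibodies and pooled, and the sex and number of the mice are not given in the sources used here. There is 1 library per group, so no test was made, no p-value is given, and the operation cannot be told apart from differences between mice, digestions or sequencing runs.

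Capillary endothelium exchanges solutes and, in fat, takes up fatty acids that lipoprotein lipase frees on its surface. Postcapillary venules are where leukocytes leave the blood, guided by selectins, chemokine-binding receptors and adhesion molecules such as MAdCAM-1, the address signal of gut vessels. Arterial identity is set by VEGF and NOTCH signals through factors such as SOX17, and wounding sets off sprouting led by tip cells.

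The hashtags were meant to tell the tissues apart, and their oligonucleotides are shown because the tissue of a member could be read from nothing else.
Hashtag 1, bowel: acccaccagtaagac
Hashtag 2, MAT: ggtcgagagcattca
Most members leaned to neither hashtag. Members held a median of 3004 UMIs of hashtag 1 and 537 of hashtag 2 in the Colotomy library, and 587 and 1473 in the Sham library. Relative to the library medians, 1 hashtag stood at least 2-fold over the other towards hashtag 1 in 7 Colotomy and 12 Sham members, and towards hashtag 2 in 20 and 11. The share leaning to hashtag 2 was 26.7% of members in the Colotomy library, where 1063 of 9246 kept barcodes did, and 2.95% of members in the Sham library, where 1311 of 42143 did. Epithelial barcodes, cells of the bowel lining, leaned to hashtag 1 in 10.4% of cases and to hashtag 2 in 11.2% in the Colotomy library, and in 10.9% and 2.29% in the Sham library. Values are given over both tissues.

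Depth differed between the libraries. Members held a median of 662 UMIs in the Colotomy library (515 to 1675, 55276 in all) and 1179 in the Sham library (615 to 5805, 500190 in all), so that 1 UMI is worth 18.1 CPM in the Colotomy sums and 2 CPM in the Sham sums (CPM, counts scaled to a total of 1000000 UMIs over the summed members). The matrices shared 190 barcodes, 108 of them kept in both and none a member in both. Xist, which shuts down 1 X chromosome of female cells, had a UMI in 14 Colotomy and 2 Sham members, while Y-linked RNA had one in 12 and 84. Whether this difference has a part in the results was not tested.

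The members carried endothelial RNA that the rule had not used. Of 22 further endothelial genes, all 22 had a higher CPM in members than in all other kept barcodes, 2.90-fold to 123-fold in the Colotomy library and 3.10-fold to 65.1-fold in the Sham library. At least 3 UMIs of these genes were found in 64 of 75 Colotomy members (85.3%) and 329 of 373 Sham members (88.2%), against 3.14% and 4.96% of the other kept barcodes. They were at 0 in 1 Colotomy and 18 Sham members. Genes of the lymphatic list that the rule had not set to 0 were rare, with 5 UMIs over the Colotomy members and 40 over the Sham members, all of Lyve1, Pdpn, Flt4 and Fgl2.

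Just below the threshold, the 30 Colotomy barcodes with exactly 2 selection UMIs held the 22 genes at 4184 CPM, and the 21 with exactly 3 held them at 6614 CPM. In the Sham library the 165 barcodes with 2 held 1190 CPM and the 79 with 3 held 4074 CPM. Selection UMIs had a median of 4 in Colotomy members and 6 in Sham members, and members at exactly 3 were 28.0% and 21.2% of all.

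**Figure D1:**
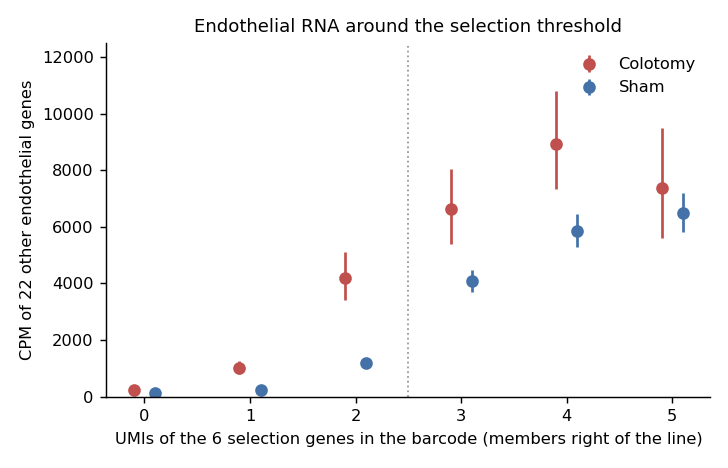
Summed level of 22 endothelial genes outside the selection (CPM, linear axis) in barcodes with 0 to 5 UMIs of the 6 selection genes and none of the excluded genes, Colotomy and Sham, with exact Poisson intervals for counting error; the dotted line marks the threshold of 3 UMIs. The level is 6614 CPM at 3 UMIs in Colotomy and 4074 CPM in Sham, and 4184 and 1190 CPM at 2 UMIs.

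Members made up 0.811% of kept barcodes in the Colotomy library (exact Clopper-Pearson bounds 0.639% and 1.02%) and 0.885% in the Sham library (0.798% and 0.979%), and the bounds overlap. When every barcode was thinned to 500 UMIs before the selection, the shares were 0.725% (0.562% to 0.919%) and 0.664% (0.589% to 0.747%). These bounds overlap too, so neither setting shows which share was larger. With at least 1000 UMIs and 500 genes per barcode they were 0.384% (0.184% to 0.705%) and 0.826% (0.726% to 0.936%), which do not overlap. Leaving out members with haemoglobin or immunoglobulin UMIs left 26 of 9246 and 27 of 42143 kept barcodes. These are 0.281% (0.184% to 0.412%) and 0.0641% (0.0422% to 0.0932%). Other barcodes with such UMIs stayed in the totals, so these are not shares among barcodes without them. Without the exclusion genes the shares were 1.45% (1.22% to 1.71%) and 2.56% (2.41% to 2.71%), so the order turned with the selection. Intervals here and below are at 95% and cover counting error only.

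RNA of vessel-type genes differed between the libraries. The capillary pair, Rbp7 and Timp4, had 4 UMIs in 4 of 75 Colotomy members and 267 UMIs in 129 of 373 Sham members, which is 72.4 CPM (exact Poisson interval 19.7 to 185) and 534 CPM (472 to 602). The venous pair, Ackr1 and Selp, ran the other way, with 25 UMIs in 9 Colotomy members and 29 UMIs in 16 Sham members, or 452 CPM (293 to 668) and 58.0 CPM (38.8 to 83.3). The arterial pair, Gja4 and Sox17, had 6 UMIs in 6 Colotomy members and 85 UMIs in 70 Sham members, or 109 CPM (39.8 to 236) and 170 CPM (136 to 210).

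As log2 ratios of Colotomy over Sham these are -2.88 for the capillary pair (exact conditional binomial interval -4.77 to -1.51), 2.96 for the venous pair (2.13 to 3.79) and -0.65 for the arterial pair (-2.13 to 0.53). The capillary and venous intervals lie on opposite sides of 0, and the arterial one spans it. In all other kept barcodes the capillary pair had 2.88 CPM in Colotomy and 9.77 CPM in Sham, and the venous pair 13.8 and 6.32 CPM. These 2 directions were therefore not particular to the members. The arterial pair had 5.88 and 3.80 CPM there. With under 10% mitochondrial UMIs the arterial pair was at -2.78 (-8.10 to -0.25), below 0. Without barcodes with haemoglobin or immunoglobulin UMIs the venous interval reached past 0 (1.06, -1.16 to 3.39). Of the 25 venous UMIs in the Colotomy library 9 came from 1 member, and without the member with most UMIs in each library the log2 ratio was 2.62. Fewer cells of a vessel type and less RNA per cell cannot be told apart in such sums.

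With each member thinned to 500 UMIs, the capillary pair was found in 3 Colotomy members (4%, 0.833% to 11.2%) and 68 Sham members (18.2%, 14.4% to 22.5%). The venous pair was found in 8 Colotomy members (10.7%, 4.72% to 19.9%) and 9 Sham members (2.41%, 1.11% to 4.53%). The arterial pair was found in 6.67% and 6.97%. No member was too shallow to be thinned, and without thinning the shares were 5.33% and 34.6% for the capillary, 12.0% and 4.29% for the venous, and 8.00% and 18.8% for the arterial pair.

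Epithelial and lymphocyte barcodes showed little of these genes. After the same thinning each pair was found in at most 0.186% of epithelial barcodes in either library. In lymphocyte barcodes the highest share was 0.563%, for the venous pair in the Colotomy library. Median depth before thinning was 1483 UMIs in Colotomy and 3081.5 in Sham epithelial barcodes, and 812 and 1376 in lymphocyte barcodes. Ackr1 and Gja4 were not confined to the members. Ackr1 stood at 29.2 CPM in Colotomy and 33.4 CPM in Sham fibroblast barcodes, against 308 and 48.0 CPM in members. Gja4 stood at 450 and 90.0 CPM in lymphatic and 41.0 and 82.6 CPM in perivascular barcodes. In members it had 36.2 and 44.0 CPM. Sox17 and Selp had no UMI in perivascular barcodes of either library.

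**Figure D2:**
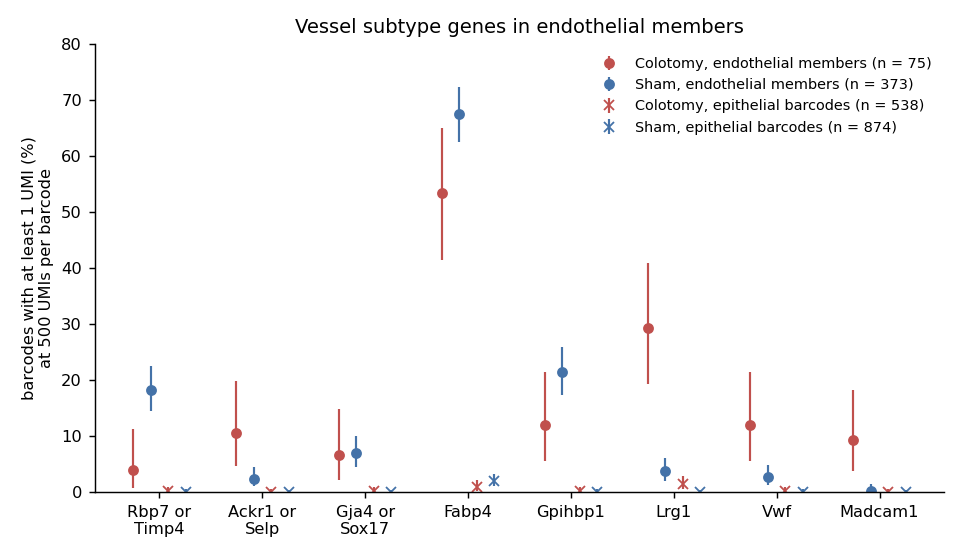
Percent of members with at least 1 UMI of a pair or gene after thinning each member to 500 UMIs, Colotomy left of Sham, with exact Clopper-Pearson intervals. The capillary pair is found in 4% of Colotomy and 18.2% of Sham members, the venous pair in 10.7% and 2.41%, and Lrg1 in 29.3% and 3.75%.

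Of the pair genes, Rbp7, a retinol-binding protein of capillary endothelium, lies on chromosome 4 (149449687 to 149454978, minus strand, GRCm38) and had 3 UMIs in the Colotomy library and 184 in the Sham library. Timp4, an inhibitor of matrix metalloproteinases (chromosome 6, 115241892 to 115252205, minus), had 1 and 83. Ackr1, a receptor that holds chemokines on venules (chromosome 1, 173331886 to 173333750, minus), had 17 UMIs in 7 members and 24 in 14. Selp, the P-selectin that lets leukocytes roll (chromosome 1, 164115264 to 164150026, plus), had 8 UMIs in 4 members and 5 in 4. Gja4, the gap junction protein connexin 37 (chromosome 4, 127311421 to 127314039, minus), had 2 and 22, and Sox17, a transcription factor (chromosome 1, 4490931 to 4497354, minus), had 4 and 63.

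Across all genes the members of the libraries differed widely, which is the background for the lists that follow. Of 3486 genes with a mean of at least 50 CPM and at least 10 UMIs over both libraries, 513 were at least 2-fold higher in Colotomy members (14.7%), 332 were at least 2-fold lower (9.52%), and 24.2% passed in either direction. Of these genes 2634 had fewer than 10 UMIs in Colotomy members, so many of these folds rest on a few transcripts. The median log2 ratio was 0.15. Since 1 Colotomy UMI counts for more CPM, a sparse gene could pass the filter through a few Colotomy UMIs, so the counts and medians over the genes of a list that passed are descriptions and support nothing by themselves. Scaling by the median ratio of well-counted genes, which shifts all values by 0.13, gave 620 higher and 251 lower, so 71.2% of calls were higher in place of 60.7%.

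Capillary genes were more often lower than higher in Colotomy members. Over all 15 listed genes, Rbp7 and Timp4 among them, the UMIs summed to 6676 CPM (6012 to 7393) in Colotomy members and 11324 CPM (11031 to 11623) in Sham members. Of the 14 that passed the filter, 5 were at least 2-fold lower, 2 were higher and the median log2 ratio was -0.51. Gpihbp1, which anchors lipoprotein lipase to capillary endothelium (chromosome 15, 75596628 to 75599481, plus), stood at 217 CPM (12 UMIs) in Colotomy members and 638 CPM (319 UMIs) in Sham members, a log2 ratio of -1.55 (-2.52 to -0.73). Car4, a surface carbonic anhydrase, was at -1.59 (-3.49 to -0.19) with 4 and 109 UMIs. Btnl9, a butyrophilin-like protein, was at -1.90 (-4.20 to -0.31) with 3 and 101 UMIs.

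The most abundant capillary gene differed less. Fabp4, a fatty acid-binding protein (chromosome 3, 10204088 to 10208576, minus), stood at 3274 CPM in Colotomy members and 6208 CPM in Sham members, a log2 ratio of -0.92 (-1.15 to -0.71), short of 2-fold. It was found in 53.3% and 67.6% of thinned members. In both libraries it stood far lower in the other vessel-associated cells. In lymphatic barcodes it had 654 CPM in Colotomy and 652 CPM in Sham, and in perivascular and smooth muscle barcodes 369 and 306 CPM. The fatty acid transporter Cd36 was at -0.35 (-0.71 to 0.0028), and Aqp7, a glycerol channel, was at 0.06. Aplnr, the apelin receptor, was higher, with 15 UMIs in 12 Colotomy members and 49 in 37 Sham members (1.47, 0.53 to 2.33). In neither library did members with a UMI of the venous pair only hold any Aplnr UMI. The upper bounds of these counts were 581 CPM in Colotomy and 199 CPM in Sham. Sham members with the capillary pair only held 14 UMIs (102 CPM), and Sham members with no pair gene held 22 (90.3 CPM). Both levels lie under the Sham bound, so these sets do not show whether Aplnr was lower in the venous one.

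Venous genes were higher. Of 9 that passed the filter, Ackr1 and Selp among them, 8 were at least 2-fold higher in Colotomy members and none was lower, with a median log2 ratio of 2.09. The remaining one, Ephb4, a venous ephrin receptor, was at 0.89 (-0.42 to 2.01). Over all 15 listed genes the UMIs summed to 172 in 39 of 75 Colotomy members and 377 in 146 of 373 Sham members, or 3112 CPM (2664 to 3613) and 754 CPM (680 to 834). In all other kept barcodes the same genes summed to 1391 CPM in Colotomy and 312 CPM in Sham. The higher sum was therefore not particular to the members. The 6 genes below the filter had 1 to 3 UMIs each in Colotomy members and 0 to 22 in Sham members.

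Lrg1, a secreted glycoprotein that modifies TGF-beta signalling in endothelium (chromosome 17, 56119678 to 56122001, minus), stood at 850 CPM (47 UMIs in 24 members) in the Colotomy library and 122 CPM (61 UMIs in 34 members) in the Sham library, a log2 ratio of 2.80 (2.22 to 3.37). Its share of thinned members was 29.3% and 3.75%. Lrg1 was also higher in all other kept barcodes of the Colotomy library, by a log2 ratio of 3.53, although at a low level of 40.9 CPM against 3.53 CPM in Sham. In lymphatic barcodes the log2 ratio was 0.57 (-0.59 to 1.63).

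Vwf, von Willebrand factor, the platelet-binding protein of endothelial granules (chromosome 6, 125546774 to 125686679, plus), stood at 452 CPM (25 UMIs in 13 members) and 106 CPM (53 UMIs in 27 members), a log2 ratio of 2.09 (1.35 to 2.81). Madcam1, the ligand of the gut-homing integrin of lymphocytes (chromosome 10, 79664559 to 79668537, plus), had 17 UMIs in 8 Colotomy members and 10 UMIs in 7 Sham members (3.94, 2.73 to 5.23). Madcam1 had no UMI in the lymphatic or perivascular barcodes of either library, and Vwf had 0 and 3 UMIs in the lymphatic ones. Nr2f2, the transcription factor of venous identity, was at 1.34 (0.37 to 2.22), and Bgn, the matrix proteoglycan biglycan, at 1.87 (0.97 to 2.72). In all other kept barcodes these last genes were higher as well, at log2 ratios of 1.40 for Nr2f2 and 2.48 for Bgn.

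Arterial genes were lower in sum, but 1 gene, Cxcl12, held 472 of the 1296 Sham UMIs and 26 of the 107 Colotomy UMIs. Over all 18 listed genes the UMIs summed to 1936 CPM (1586 to 2339) in Colotomy members and 2591 CPM (2452 to 2736) in Sham members, a log2 ratio of -0.42 (-0.72 to -0.14). Of 13 that passed the filter, 2 were lower, none was higher, and the median was 0.06. Cxcl12, the chemokine that holds CXCR4-bearing cells, stood at 470 CPM (26 UMIs) in Colotomy members and 944 CPM (472 UMIs) in Sham members, a log2 ratio of -1.0 (-1.63 to -0.44), while in all other kept barcodes it was at 0.87. Efnb2, the arterial ephrin, was at -1.41 (-4.49 to 0.52) with 2 and 48 UMIs. The NOTCH target Hey1 at -0.73 (-3.06 to 0.91) and the arterial semaphorin Sema3g at 0.37 (-1.34 to 1.73) had intervals that span 0.

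**Figure D3:**
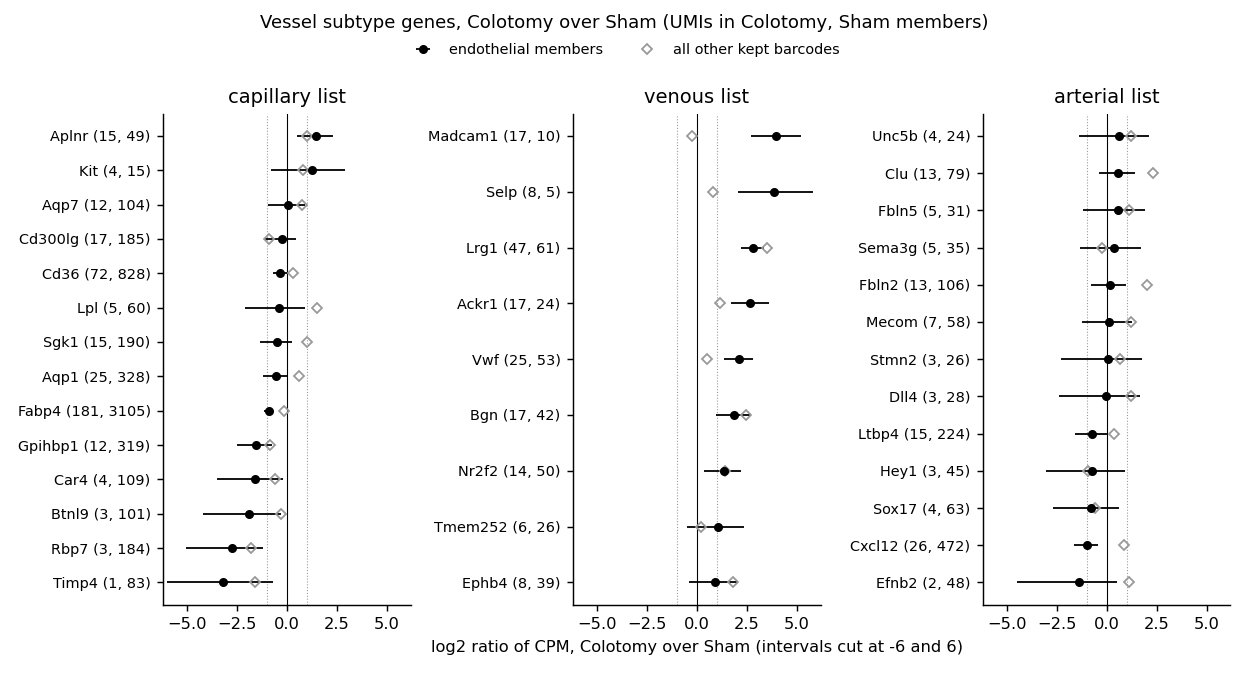
Log2 ratio of Colotomy over Sham for the capillary, venous and arterial genes that passed the filter, members beside all other kept barcodes, with exact conditional binomial intervals for the members. Of the venous genes 8 of 9 lie past 2-fold to the right, of the capillary genes 5 of 14 lie past it to the left, and the arterial genes centre near 0.

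Within the Sham library the pairs marked members with different RNA. Members were sorted by which pair had a UMI: 97 had the capillary pair only, 13 the venous, 39 the arterial, 30 both capillary and arterial, and 191 (51.2%) none. In the Colotomy library 4 had the capillary pair only, 8 the venous, 5 the arterial, and 57 (76.0%) none, so the sets with a pair are described in the Sham library. As the sets are defined by these same cells, their values are descriptions.

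Fabp4 stood at 11505 CPM (10944 to 12087) in the capillary set, 2484 CPM (1819 to 3314) in the venous set and 2860 CPM (2402 to 3378) in the arterial set. Gpihbp1 followed it with 1124, 0 and 352 CPM, and so did Cd36 with 2896, 378 and 995 CPM. Vwf stood at 1512 CPM in the venous set, from 28 UMIs, against 7.30 CPM in the capillary and 20.7 CPM in the arterial set, and Lrg1 at 1080 CPM against 14.6 and 62.2 CPM. Nr2f2 stood at 756, 29.2 and 62.2 CPM in the same order. Calcrl, a receptor of adrenomedullin, stood at 1080 CPM in the venous set against 29.2 and 124 CPM, without being a gene of the venous list. Cxcl12, a gene of the arterial list, stood at 1181 CPM in the arterial set, 963 CPM in the capillary and 108 CPM in the venous set. In members with no pair it stood at 862 CPM, so it was not particular to the arterial set. The members with no pair held Fabp4 at 3354 CPM and Lrg1 at 131 CPM.

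Plvap, the protein of the diaphragms in endothelial openings and one of the selection genes, was lowest in the capillary set, at 394 CPM against 1350 CPM in the venous and 1347 CPM in the arterial set. In Colotomy and Sham members as a whole it had 977 and 832 CPM. Among the 57 Colotomy members with no pair, Lrg1 stood at 676 CPM (449 to 977) and Fabp4 at 3742 CPM (3176 to 4380), against 131 CPM (89.8 to 185) and 3354 CPM (3127 to 3592) in the corresponding Sham members. A member without a pair UMI is not shown to be other than venous, and Vwf stood at 290 CPM in the Colotomy and 82.1 CPM in the Sham members with no pair, and Madcam1 at 96.6 and 16.4 CPM. The Fabp4 intervals of these members overlapped between the libraries.

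**Figure D4:**
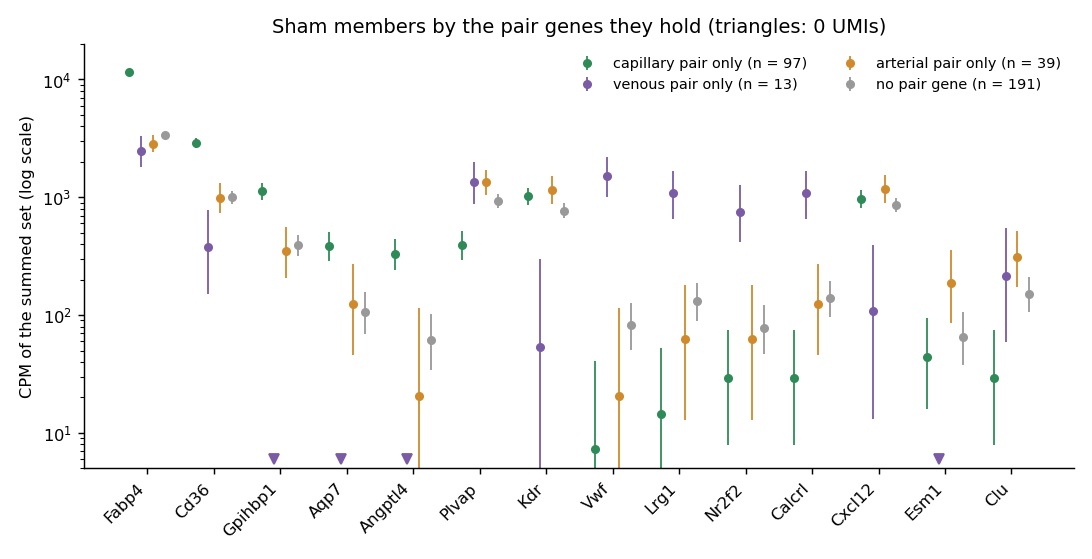
Level of endothelial genes outside the pairs (CPM, log axis) in Sham members that have a UMI of the capillary, venous or arterial pair only, beside those with no pair gene, with exact Poisson intervals. Fabp4 is highest in the capillary set at 11505 CPM, and Vwf and Lrg1 are highest in the venous set at 1512 and 1080 CPM.

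Over all 18 listed genes of sprouting and tip cells the UMIs summed to a log2 ratio of 0.62 (0.45 to 0.79) in members. In all other kept barcodes the same genes summed to 935 CPM in Colotomy and 599 CPM in Sham, so they were higher there as well. Of 10 that passed the filter, 4 were higher and none was lower (median 0.58). Mcam, an adhesion molecule of growing vessels, stood at 308 CPM (17 UMIs in 15 members) and 54.0 CPM (27 UMIs in 25 members), a log2 ratio of 2.51 (1.54 to 3.44). Col15a1, a collagen of vessel basement membranes, was at 1.57 (1.02 to 2.09), Esm1, the tip cell proteoglycan endocan, at 1.46 (0.27 to 2.51) with 10 and 33 UMIs, and Apln, the ligand apelin, at 1.30 (-0.29 to 2.65). Without barcodes with haemoglobin or immunoglobulin UMIs Esm1 was on the other side of 0 (-0.073, -2.29 to 1.90). Angpt2, the angiopoietin that loosens vessels, had too few UMIs to pass, 0 in Colotomy and 13 in Sham members.

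Among 16 genes of VEGF, angiopoietin and NOTCH signalling, 1 was higher and 1 lower (median 0.10), below the share of all genes. The higher one was Nrp2, a co-receptor of venous and lymphatic endothelium, at 1.34 (0.45 to 2.17). The lower one was Id1, a target of BMP signalling through ALK1 (chromosome 2, 152736251 to 152737410, plus), which had 5 UMIs in 5 Colotomy members and 212 UMIs in 140 Sham members, or 90.5 and 424 CPM (-2.23, -3.87 to -0.98). In all other kept barcodes Id1 was at 0.91 and in lymphatic barcodes at 0.64 (-1.94 to 2.77). Id3, of the same family, was at -0.23 (-0.99 to 0.45), the ALK1 receptor Acvrl1 at 0.09 and its co-receptor Eng at -0.73 (-1.66 to 0.08).

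Of 12 genes of leukocyte adhesion and entry, 5 were higher and none was lower (median 0.82), and 3 of the 5, Selp, Ackr1 and Madcam1, are also in the venous list. Of all genes 14.7% were higher and 9.52% lower. Over all 22 listed genes the sums were 4197 CPM in Colotomy and 2313 CPM in Sham members. In all other kept barcodes they were 869 and 592 CPM, so these genes were higher there as well. Glycam1, a selectin ligand of high endothelial venules, had 10 UMIs in 2 Colotomy members, 9 of them in 1, and none in Sham members. Cxcl2, a neutrophil chemokine, had 11 UMIs in 4 Colotomy members and 6 in 2 Sham members, and was higher by a log2 ratio of 3.95 in all other kept barcodes too. Icam1, an integrin ligand, was at 0.91 (-0.83 to 2.33) and Icam2 at -0.52 (-2.45 to 0.92). Sele and Vcam1, the inducible adhesion molecules of inflamed endothelium, were too sparse, with 1 and 2 UMIs in Colotomy members and 0 and 11 in Sham members.

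Basement membrane genes were at a median of 0.49, with 3 of 15 higher and 1 lower, where 14.7% of all genes were higher and 9.52% lower. Over all 16 listed genes the sums were 8865 CPM in Colotomy and 6154 CPM in Sham members. In all other kept barcodes they were 4911 and 1272 CPM, so these genes were higher there as well. The main type IV collagen gene Col4a1 stood at 2442 CPM (135 UMIs) in Colotomy members and 1469 CPM (735 UMIs) in Sham members, a log2 ratio of 0.73 (0.46 to 1.00), and its partner Col4a2 at 0.43 (-0.01 to 0.83). Col18a1, the source of endostatin, was at 2.66 (1.03 to 4.20) with 7 and 10 UMIs. Sparc, a matrix-binding glycoprotein, was at 0.49 (0.21 to 0.75) in members and 2.42 in all other kept barcodes.

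Of 14 genes of lipid uptake and handling, none was higher and 3 were lower (median -0.31). Besides Gpihbp1 these were Angptl4, an inhibitor of lipoprotein lipase, at -1.49 (-3.79 to 0.12) and Tcf15, a transcription factor of fatty acid uptake genes, at -1.52 (-4.61 to 0.40). Angptl4 and Tcf15 each had at most 3 Colotomy UMIs. The caveola genes stayed near 0, with Cav1 at 0.06 (-0.43 to 0.51), Cavin1 at 0.01 (-0.39 to 0.38) and Cavin2 at -0.10 (-0.64 to 0.39). The adipocyte genes in the data had no UMI in Colotomy members and 38 UMIs over 26 Sham members.

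Junction genes had 1 higher and 1 lower of 11 (median 0.39). The tight junction gene Cldn5 had 10 UMIs in 6 Colotomy members and 199 in 89 Sham members (-1.14, -2.22 to -0.23), while Ctnnd1, the catenin that stabilises VE-cadherin, stood at 398 and 116 CPM (1.78, 1.00 to 2.51). Ctnnd1 was higher in all other kept barcodes as well, at a log2 ratio of 1.92. Of 11 genes of shear stress, nitric oxide and clotting, 3 were higher and 2 lower (median 0.29). Thbd, the anticoagulant thrombomodulin, was at 1.18 (0.53 to 1.79) and Ptgs1, a cyclooxygenase, at 1.59 (0.23 to 2.79). The flow-responsive factors Klf2 and Klf4 were at -0.18 (-0.74 to 0.34) and -0.43 (-1.24 to 0.29), and the nitric oxide synthase Nos3 was at 0.29 (-1.41 to 1.64).

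Immediate early genes had 6 of 17 higher and none lower (median 0.69), where 14.7% of all genes were higher and 9.52% lower. Over all 18 listed genes the sums were 3944 CPM in Colotomy and 2743 CPM in Sham members. In all other kept barcodes they were 3295 and 2367 CPM, so these genes were higher there as well. Junb, an AP-1 subunit, stood at 887 and 418 CPM (1.09, 0.61 to 1.54), with 11 of its 49 Colotomy UMIs in 1 member, and Socs3, a brake on cytokine signalling, had 7 and 13 UMIs (2.28, 0.72 to 3.72). Of 10 glucocorticoid-responsive genes 4 were lower and 2 higher, with Klf9 at -1.75 (-3.65 to -0.36) and Cdkn1a at -1.67 (-3.57 to -0.27), each on 4 Colotomy UMIs. Of 16 interferon-responsive genes 2 were higher and 2 lower (median 0.14), close to the shares over all genes, and of 8 MHC class I genes none passed 2-fold (median -0.01). Hypoxia and glycolysis genes had 1 higher and 1 lower of 10. Proliferation genes were sparse, with 3 of 16 past the filter and Mki67 at 0 UMIs in Colotomy and 22 in Sham members.

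MHC class II genes, by which professional antigen-presenting cells show peptides, had 5 of 8 lower and none higher (median -1.07). Cd74, their invariant chain, stood at 1411 CPM in 19 of 75 Colotomy members and 3035 CPM in 282 of 373 Sham members (-1.10, -1.45 to -0.78). All 8 were also lower in all other kept barcodes, Cd74 at a log2 ratio of -1.64. The B cell gene Cd79a moved with them, at 90.5 and 482 CPM in members (-2.41, -4.05 to -1.17) and -2.75 in all other barcodes. Without barcodes with haemoglobin or immunoglobulin UMIs Cd74 was on the other side of 0 in members, at 0.96 (0.28 to 1.66). The part of lymphocyte RNA in the MHC class II values was not tested.

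RNA of other cell types was present in the members and differed between the libraries. Haemoglobin and platelet genes summed to 109 CPM over 5 Colotomy members and 12183 CPM over 196 Sham members, with Hbb-bs alone at 18.1 and 6172 CPM. Genes of T, B and plasma cells summed to 3148 CPM (65.3% of members) and 8227 CPM (92.0%), mostly immunoglobulin, with Cd3d, Trbc1, Trbc2 and Nkg7 at 0 in Colotomy members. Genes of fibroblasts summed to 1809 and 810 CPM, of epithelium to 1375 and 710 CPM, of mesothelium to 326 and 250 CPM, and of perivascular and smooth muscle cells to 687 and 234 CPM, the last in 8 and 42 members. Within a member these sums ran to at most 18 and 55 UMIs for fibroblast genes and 23 and 13 for perivascular genes. Glial genes had 1 and 5 UMIs, with Sox10 at 0.

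Myeloid genes summed to 4161 CPM in 28 Colotomy members and 512 CPM in 87 Sham members. The Colotomy sum, of 230 UMIs, rests mainly on 2 neutrophil genes that hold little of the Sham sum of 256 UMIs. These are S100a8, with 59 UMIs in 7 Colotomy members and 2 UMIs in 2 Sham members, and S100a9, with 100 UMIs in 11 and 10 UMIs in 3. Of these, 30 UMIs of S100a8 lay in 1 Colotomy member, and so did 41 of S100a9. Of 14 TGF-beta and mesenchymal genes 6 were higher and 1 lower (median 0.80), with Fn1, fibronectin, at 1.68 (0.79 to 2.5), Tagln, a smooth muscle protein, at 3.04 (1.65 to 4.42) and Col1a1 at 2.5 (1.46 to 3.49). In all other kept barcodes Fn1 was at 1.68 and Col1a1 at 3.80, and 7 of the 10 Tagln UMIs in the Colotomy library lay in 1 member. The part of these other cells in the members' values was not tested.

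Leaving out every barcode with a haemoglobin or immunoglobulin UMI left 26 Colotomy and 27 Sham members. Among them the capillary pair had no UMI in the Colotomy library, a log2 ratio of -2.38 with the floor of 3 counts and an upper bound of -1.98. The venous pair was at 1.06. Cd74 was then at 0.96 (0.28 to 1.66), on the other side of 0.

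By rule, 15 genes were named from each end of the ratios of 576 genes. These had at least 20 UMIs and 100 CPM on their higher side, where their CPM was also no lower than in other kept barcodes. Each gene thus passed through the library where it was higher and was then ranked by that ratio. The ratios and intervals of the named genes are therefore descriptions and support nothing by themselves. The limits also weighed unequally, as 20 UMIs of Rbfox2 came to 362 CPM in Colotomy and 51 UMIs of Prdm2 to 102 CPM in Sham. The largest ratios belonged to neutrophil-type genes, S100a8 (8.06), Lcn2 (6.88), S100a9 (6.50) and Ngp. Ngp had 28 UMIs in 2 Colotomy members, 23 of them in 1, and none in Sham members. With the floor of 3 counts it was 84.5-fold higher, and its lower bound was 64.3-fold. All 4 genes were also higher in all other kept barcodes, by 4.54 to 6.14. Retnla (1.90), a macrophage gene, had 26 of its 38 Colotomy UMIs in 1 member. Lrg1, found in 24 Colotomy members, ranked next after the 4 neutrophil-type genes, and the 10 genes after it were each found in 6 to 20.

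Insr, the insulin receptor, stood at 398 CPM (22 UMIs in 19 members) in the Colotomy library and 72.0 CPM (36 UMIs in 31 members) in the Sham library, a log2 ratio of 2.47 (1.63 to 3.27). In fibroblast barcodes it was at 0.24 (-0.13 to 0.62). Grrp1, an endothelial gene of little-known function, stood at 380 and 96.0 CPM (1.99, 1.17 to 2.75), and in all other kept barcodes at 1.04 and 1.83 CPM. Prcp, a peptidase of the kallikrein-kinin system, was at 1.99 (1.31 to 2.64), with 0.45 (0.18 to 0.72) in fibroblast barcodes. Gda, guanine deaminase, was at 2.21 (1.42 to 2.96) in members, 0.87 (0.66 to 1.09) in fibroblast barcodes and 1.58 in all other kept barcodes.

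Rbfox2, Sox4 and Thbs1 were higher by over 1.5 on the log2 scale in fibroblast barcodes as well. Rbfox2, a splicing regulator, was at 2.69 (1.79 to 3.57) in members and 1.55 (1.37 to 1.73) in fibroblast barcodes. Sox4, a transcription factor, was at 1.79 (0.99 to 2.54) and 1.95 (1.77 to 2.13), and Thbs1, the angiogenesis inhibitor thrombospondin-1, at 1.61 (0.90 to 2.28) and 2.24 (2.07 to 2.41). In all other kept barcodes Rbfox2 was at 2.92, Sox4 at 2.58 and Thbs1 at 3.46, each above its value in members.

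Of the 15 genes with the smallest ratio, 11 had 1 UMI in Colotomy members, and the intervals of Zmym5, Prdm2 and Cab39 reach past 0. Id1, Rbp7 and Timp4 were among them. Ccl5, a T cell chemokine with 25 of its 83 Sham UMIs in 1 member, stood at -3.20 (-8.52 to -0.68) in members and -3.69 in all other kept barcodes. The others were Etl4 at -2.97, Sept4 at -2.84, Eif4ebp2 at -2.82, Ctcf at -2.66, Rb1cc1 at -2.63, Rras at -2.55, Tmem234 at -2.38 and Itpr2 at -2.21, with upper bounds between -0.48 and -0.01.

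**Figure D5:**
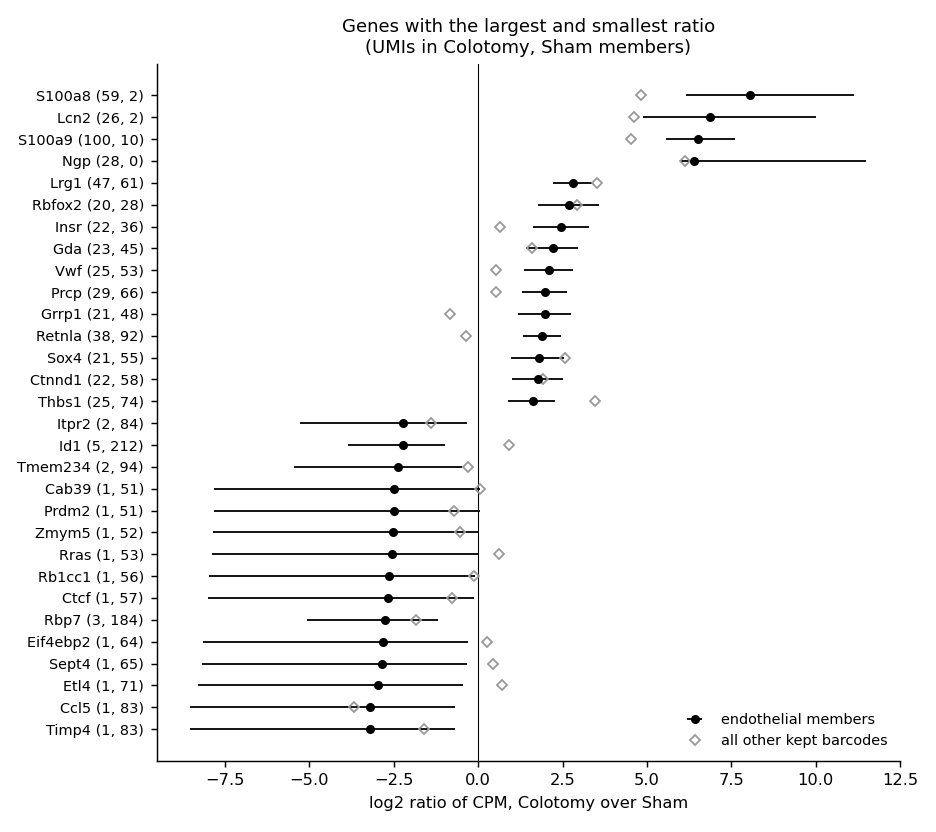
Log2 ratio of Colotomy over Sham in members for the 15 genes at each end of the ratios, with exact conditional binomial intervals and the ratio in all other kept barcodes beside it. Neutrophil genes lead at the top, and 11 of the 15 genes at the bottom rest on 1 Colotomy UMI with wide intervals. The genes were picked by these ratios, so the values are descriptions.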

How the data were processed

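Cells of 2 libraries, Colotomy and Sham, were measured on the 10x platform. The authors deposited 1 matrix per library, in which each value is the unscaled count of UMIs for 1 of 32285 genes or 2 hashtags in 1 barcode, and Cell Ranger 6.0.0 made them, per the file headers. Per the submitters' processing notes the build was mm10 and STAR 2.5.1b, Seurat and Space Ranger were also used, with no role given. The matrices held 15547 barcodes with 12002711 gene UMIs (Colotomy) and 44814 with 74006762 (Sham). Gene positions are those of GENCODE on GRCm38, the build also called mm10.

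UMIs of the members were summed per library and scaled to CPM with numpy 2.4.6 and scipy 1.17.1. Intervals at 95% are exact Poisson for CPM, Clopper-Pearson for shares and conditional binomial for ratios, and assume independent transcripts, so they are too narrow where 1 member holds many UMIs. A count of 0 takes a floor of 3 counts. Genes entered the counts with a mean of at least 50 CPM over both libraries and at least 10 UMIs, and were called past 2-fold. With 1 library per group no model was fitted. Named genes are the 15 at each end of the ratios among those with at least 20 UMIs, at least 100 CPM and no lower a level than in other kept barcodes, without mitochondrial, ribosomal, haemoglobin, immunoglobulin, sex-linked, unnamed and selection genes, plus list genes where a list is described. Single genes within a described list were picked after their values were seen.

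No doublet caller was run. Barcodes with Ptprc, Col1a2 or Epcam were left out by the rule, and an alternative left out the 5% with most UMIs. Epithelial barcodes had at least 2 Epcam UMIs with Ptprc and Col1a2 at 0. Lymphocyte barcodes had at least 2 UMIs of T and B cell genes with Epcam and Col1a2 at 0. Of the Sham lymphocyte barcodes 3000 were drawn. The lymphatic, perivascular and fibroblast barcodes set beside the members were 21, 33 and 2924 in the Colotomy and 45, 100 and 2133 in the Sham library. The calculation of ratios and their bounds was tested on simulated data. The members, the 31 gene lists and the alternatives were chosen with earlier results of these data known.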

Additional observations from a re-analysis of the deposited data

How the results depend on the processing

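Across the alternatives that could be run, the capillary pair kept its sign, with log2 ratios of Colotomy over Sham between -3.91 and -1.70. The venous pair kept its sign, at 3.90 with under 10% mitochondrial UMIs, 4.26 with at least 5 selection UMIs and 1.06 (-1.16 to 3.39) without barcodes with haemoglobin or immunoglobulin UMIs, where its interval reached past 0. The arterial pair was at -2.78 (-8.10 to -0.25) with under 10% mitochondrial UMIs, an interval below 0, and at -0.0055 without the exclusion genes. The share of members in the Colotomy library was 0.384% with at least 1000 UMIs and 500 genes, 1.14% and 0.400% with at least 2 and at least 5 selection UMIs, 1.12% with up to 1 UMI of each exclusion gene, 1.45% without these exclusions, 0.281% without haemoglobin or immunoglobulin and 1.88% among barcodes leaning to hashtag 2. In the Sham library the share was 0.826% with at least 1000 UMIs and 500 genes, 1.28% and 0.560% with at least 2 and at least 5 selection UMIs, 1.56% and 2.56% with looser and no exclusions, 0.0641% without haemoglobin or immunoglobulin, 0.698% among barcodes with Y-linked RNA and no Xist, 0.788% and 0.839% among those leaning to hashtag 1 and to hashtag 2, 0.781% with at least 3 UMIs of the 22 other endothelial genes and 0.664% after thinning. The last 2 settings, and leaving out the member with most UMIs, were chosen after seeing the data. The shares without haemoglobin or immunoglobulin left out members only, over an unchanged total of kept barcodes.

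Genes at least 2-fold higher numbered 70 and lower 133 without haemoglobin or immunoglobulin, 995 and 771 at a mean of 20 CPM, 169 and 110 at 100 CPM, 2534 and 771 with no filter, and 1025 and 648 at 1.5-fold. Of 64 single genes past 2-fold, 62 kept their sign under every alternative run, and 2 of the 845 values had the other sign, both without haemoglobin or immunoglobulin, Esm1 (-0.073) and Cd74 (0.96). Of 22 genes under 2-fold, 13 changed sign in 31 of 299 values. The cause was not tested. Ratios were not run where a library kept fewer than 20 members, which held for at least 1000 UMIs (10 and 242), Y-linked RNA without Xist (11 and 83), hashtag 1 (7 and 12) and hashtag 2 (20 and 11). No paired analysis was possible because each group has 1 library. The 55276 UMIs of Colotomy members limit every list to its better-counted genes.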
